A study of Caenorhabditis elegans with 2 samples.

Results

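Autosomal one-sided promoter peaks are regions bound in chromatin immunoprecipitation followed by sequencing (ChIP-seq) of SNPC-1.3 that lie at the start of a protein-coding gene, on chromosomes I to V, with gene starts on 1 strand only. They were chosen by position: the summit, the point of highest signal in a region, had to lie within 500 bp of the annotated 5′ end of protein-coding genes of a single strand. Peaks with a tRNA, snRNA, snoRNA or other non-coding RNA gene of under 500 bp within 250 bp of the summit were left out, as were peaks within 500 bp of the 5′ end of an rpl- or rps- gene, which encode ribosomal proteins. Of 1676 peaks in the list that passed the authors' irreproducible discovery rate (IDR) threshold, 485 (28.9%) met the rule. They are called one-sided peaks below, and the other IDR peaks used for comparison are 231 divergent peaks, which met the same rule but had 5′ ends on both strands, and 3 promoter peaks on the X chromosome.

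The samples were whole young adult hermaphrodites of Caenorhabditis elegans strain YL485, a stable line in which SNPC-1.3, the product of F08F3.9, carried GFP and FLAG at its C terminus. An antibody to GFP precipitated the sonicated chromatin, and the 2 samples, labelled biological replicates 1 and 2, made up the single group of the series. Both were called against 1 control, no sample without the tag or of males was used, and whole animals mix germline and somatic nuclei, so no result can be assigned to a tissue. Read depth is unknown, since peak lists hold no counts of reads. Every interval below is a Clopper-Pearson 95% interval that covers counting error only.

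SNPC-1.3 belongs to the family of a core subunit of SNAPc, a complex known for recruiting RNA polymerases to genes of small nuclear and spliced leader RNAs, and in nematodes to piRNA genes. Promoters of protein-coding genes are not its classical targets. In C. elegans many such promoters serve a single gene, others lie between divergent genes, and many genes receive a spliced leader by trans-splicing, so that an annotated 5′ end can lie downstream of the true start of transcription.

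The sequences at the strongest summits show what these regions look like. The summit with 50 bp to each side is printed for 5 one-sided peaks of high signal, on the strand of the gene, from the RefSeq sequence of WBcel235 (ce11). Capitals mark a match to any of the 12 motifs searched or to CGCGCA, a 6-mer described further on.
cdc-48.1, II:10563515-10563615, minus strand: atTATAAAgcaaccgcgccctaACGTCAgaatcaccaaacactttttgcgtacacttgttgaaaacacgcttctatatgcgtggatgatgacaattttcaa
cox-5A, III:12905185-12905285, plus strand: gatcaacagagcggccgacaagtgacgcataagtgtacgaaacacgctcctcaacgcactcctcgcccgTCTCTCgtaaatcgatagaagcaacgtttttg
cpg-1, III:4489054-4489154, plus strand: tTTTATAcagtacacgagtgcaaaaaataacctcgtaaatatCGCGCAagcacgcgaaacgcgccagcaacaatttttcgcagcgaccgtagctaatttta
wip-1, III:5018273-5018373, plus strand: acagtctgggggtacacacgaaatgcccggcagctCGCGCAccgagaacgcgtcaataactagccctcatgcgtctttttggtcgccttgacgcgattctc
tasp-1, III:10759156-10759256, plus strand: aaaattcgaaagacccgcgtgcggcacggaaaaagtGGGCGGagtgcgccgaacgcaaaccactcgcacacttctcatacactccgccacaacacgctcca

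One-sided peaks made up a modest share of the candidates at such positions. The pooled list held 30000 candidate regions, of which 5.59% were IDR peaks. Among the 5960 candidates that met the one-sided rule, 485 were IDR peaks (8.14%, 7.46 to 8.86%), against 231 of 694 divergent candidates (33.3%, 29.8 to 36.9%) and 3 of 429 promoter candidates on X (0.699%, 0.144 to 2.03%). The intervals of the 3 classes do not overlap. The X peaks were at the genes sdc-1, eor-2 and C27C12.4, with signals of 45.45, 40.97 and 39.86.

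**Figure D1:**
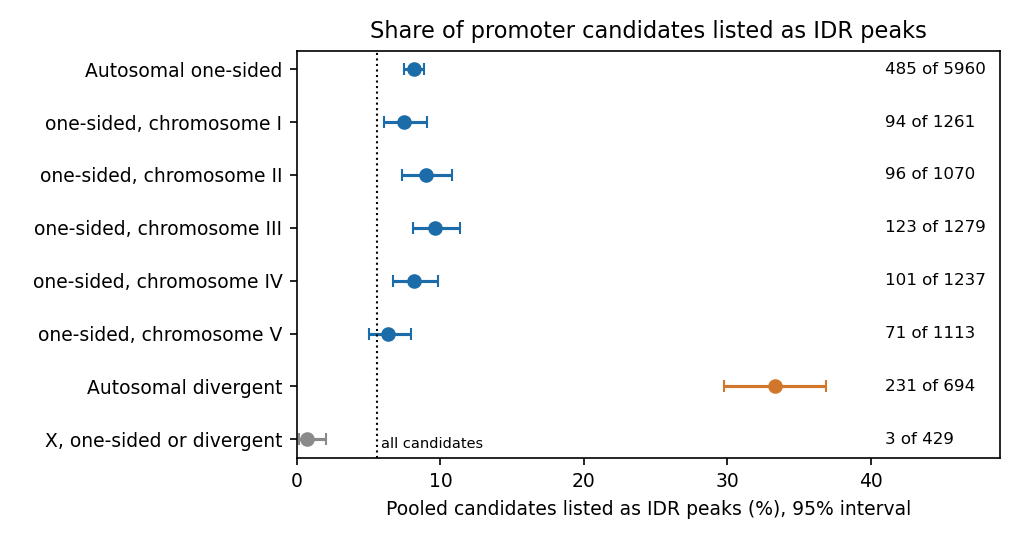
Share of pooled candidates that are IDR peaks (x axis, %, with 95% intervals) for autosomal one-sided promoters as a whole and by chromosome, autosomal divergent promoters, and X promoters; counts stand at the right and the dotted line is the share of all candidates, 5.59%. The one-sided shares lie between 6.38 and 9.62%, below the divergent share of 33.3% and above that of X.

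The 5 autosomes differed in how densely they held one-sided peaks. Chromosome III had 123 (8.92 per Mb), II had 96 (6.28 per Mb), I had 94 (6.24 per Mb), IV had 101 (5.77 per Mb) and V had 71 (3.39 per Mb). Counted by gene, 489 of 17242 autosomal protein-coding genes had such a peak (2.84%), with 4.70% of genes on III and 1.46% on V. Of the one-sided peaks, 288 (59.4%, 54.9 to 63.8%) lay in the central 50% of their chromosome, which holds 55.7% of autosomal genes. The divergent peaks had 59.7% there.

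One-sided peaks had a median signal of 53.6 in the authors' unit, with quartiles of 44.8 and 68.3, a lowest value of 39.8 and a highest of 301.4. Divergent peaks had a median of 57.1, and all IDR peaks 57.8. The one-sided peaks supplied 3 of the 50 IDR peaks of highest signal, 34 of the top 200 and 95 of the top 500. They were mostly regions of a fixed width: 450 had the same width, and of the 35 narrower ones 34 were among the 122 peaks of highest signal.

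The strongest one-sided peak lay upstream of cdc-48.1, the gene of an ATPase that unfolds ubiquitin-tagged proteins (II:10563475-10563660). Its signal was 301.4, it ranked 29 in replicate 1 and 24 in replicate 2, and its summit was 158 bp upstream of the 5′ end, between genes. Next came cox-5A, encoding a subunit of cytochrome c oxidase (III:12905127-12905283), with a signal of 210.8, ranks of 37 in replicate 1 and 40 in replicate 2, and a summit at -256 bp. Both replicates placed these regions among their 40 strongest. The other gene of that enzyme with a one-sided peak, cox-5B, had a signal of 149.9 and ranks of 70 and 88, but its summit lay 17 bp inside the gene.

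The peaks of the other genes whose sequences are printed above had lower signals. At cpg-1, which encodes a chondroitin proteoglycan of the eggshell, the signal was 179.3 and the ranks were 98 in replicate 1 and 44 in replicate 2. The peak of wip-1, a WASP-interacting protein gene, had a signal of 158.6 and ranks of 80 and 53. That of tasp-1, a gene for a threonine aspartase, had 157.3 with ranks of 142 and 56. Replicate 2 ranked these 3 higher than replicate 1 did.

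The 20 one-sided peaks of highest signal ended at a signal of 116.5, at dnj-9, a DnaJ-domain chaperone gene. They also included rga-3, encoding a GTPase-activating protein (signal 128), mex-1, encoding a zinc finger RNA-binding protein of the embryo (125), egg-1, for an oocyte surface protein needed in fertilization (124.3), and pygl-1, for glycogen phosphorylase (121.7). Others were at F36A2.7 (198.1), Y71H2AM.20 (135.8), tag-115 (135.6), C34C12.8 (131.8), nstp-10 (131.7), eelo-2 (129.9), F14H8.8 (123.7) and W08E12.7 (117.5). All 20 ranked within the first 418 candidates of replicate 1 and the first 177 of replicate 2.

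Agreement between the replicates was high for the strongest one-sided peaks and lower for the rest. A peak was counted as top in a replicate when it overlapped one of the 1676 candidates of highest signal there. By this measure 245 of 485 were top in both replicates (50.5%, 45.97 to 55.1%), 63 in replicate 1 only, 147 in replicate 2 only and 30 in neither. Divergent peaks had 53.7% in both and all IDR peaks 58.5%. Split by signal into 4 groups of 121 or 122, the share of one-sided peaks top in both was 95.9% in the highest group, 67.8% and 32.2% in the next and 5.79% in the lowest. These shares depend on signal in part by construction, because the pooled signal rests on the same reads as the replicate lists.

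The ranks of the 478 one-sided peaks with a candidate in both replicates had a Spearman rank correlation of 0.301, a description across regions of 1 pair of replicates. The median rank was 1107 in replicate 1 and 994 in replicate 2, and the replicates' own summits were a median of 31 bp apart, with 70.7% within 50 bp. The distance between summits is limited by construction, since a replicate candidate had to overlap the peak. In 5 cases replicate 1 had no candidate, and in 2 cases replicate 2 had none. With a missing candidate counted as a gap, the largest rank gaps were at some of these peaks. That of hrpa-1, the gene of a heterogeneous nuclear ribonucleoprotein, had rank 537 in replicate 1 and no candidate in replicate 2. Those of inf-1, encoding the translation initiation factor eIF4A, and gskl-2, a GSK3-like kinase gene, had ranks of 713 and 915 in replicate 2. Neither had a candidate in replicate 1.

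**Figure D2:**
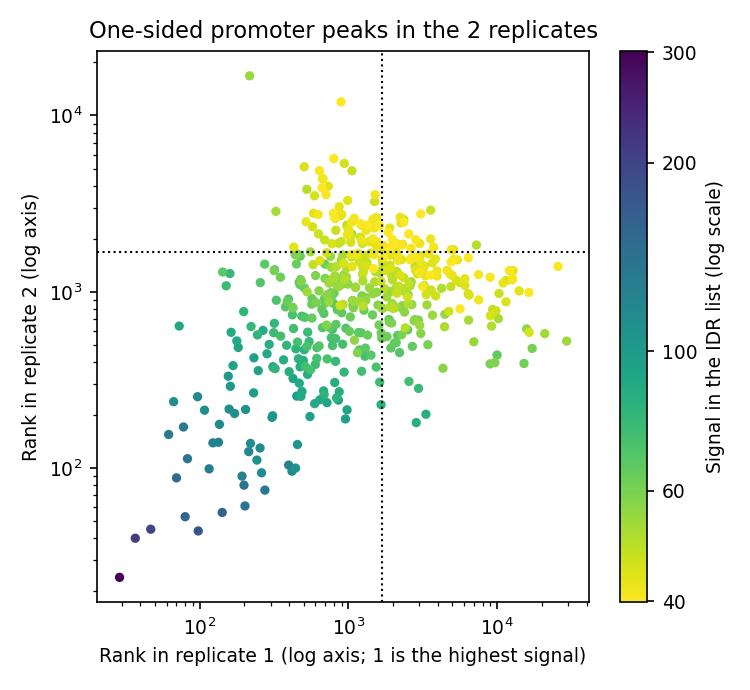
Rank of each of 478 one-sided peaks in the candidate list of replicate 1 (x axis) and of replicate 2 (y axis), both on log axes, coloured by signal in the IDR list; dotted lines mark rank 1676. Peaks of high signal lie near the lower left corner, and those below about 60 spread on both sides of the dotted lines.

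Summits lay upstream of the gene in most cases. Of 485 one-sided peaks, 421 had the summit upstream of the nearest qualifying 5′ end (86.8%, 83.5 to 89.7%), at a median of -175 bp with quartiles of -279 and -72 bp. Divergent summits were closer, at a median of -126 bp, and 92.2% were upstream of the nearest 5′ end. One-sided candidates that were not IDR peaks were spread almost evenly, with 52.7% (51.4 to 54%) upstream and a median of -20 bp. These other candidates met the same rule, which leaves out summits near a 5′ end of the other strand and so removes mainly upstream positions.

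**Figure D3:**
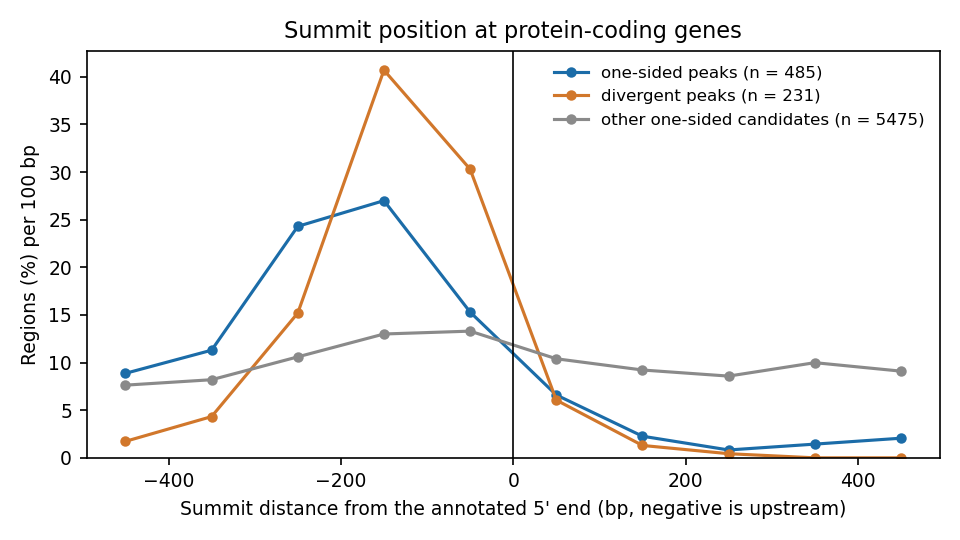
Percentage of regions (y axis) per 100 bp of summit distance from the annotated 5′ end (x axis, bp, negative upstream) for 485 one-sided peaks, 231 divergent peaks and 5475 one-sided candidates not listed as IDR peaks. One-sided peaks are most frequent between -200 and -100 bp (27%) and between -300 and -200 bp (24.3%), while the other candidates stay between 7.63 and 13.3% throughout.

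By annotation, 392 one-sided summits (80.8%) lay between genes, 59 (12.2%) inside the gene they were assigned to, 19 inside another gene of the same strand and 15 inside another gene of the other strand. Upstream summits had a median signal of 54.02 and were top in both replicates in 52.7% of cases, and the 64 at or downstream of the 5′ end had 49.1 and 35.9%. One-sided peaks were well separated, with a median distance of 11773 bp to the nearest other IDR peak and 16 with another IDR peak within 1000 bp. Non-coding genes that the rule did not remove were rarely near: within 250 bp of the summit 6 peaks had a piRNA gene, 3 a miRNA gene, 4 a pseudogene, 1 a long intergenic RNA gene and none an rRNA gene.

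Of the 485 one-sided peaks, 481 had a single qualifying gene and 4 had 2 genes of the same strand, and no gene had more than 1 such peak. The genes were on the plus strand in 252 cases and on the minus strand in 237. The strongest peak with 2 genes lay 474 bp upstream of ife-3, an eIF4E gene, and 437 bp downstream of the 5′ end of B0348.10, beyond the end of that gene, with a signal of 76.58. It was followed by the peak of egl-30, the gene of a Gq alpha subunit, and C53H9.4 (71.94), and by that of C07G2.5 and atf-7, a gene of a CREB/ATF family factor (47.08).

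The edges of the rule cut through a continuous spread of positions. The members just inside the window were at sin-3, which encodes a scaffold of histone deacetylase complexes, at -496 bp with a signal of 56.74, and at his-61, a histone gene, at +495 bp with 40.22. The peaks just outside were at -501 bp from pqn-71, with a signal of 130.4, where the summit also lies at tRNA genes, and at -502 bp from sms-3, with 84.11. Another peak of sms-3, 217 bp downstream of its 5′ end and with a signal of 68.32, was a member. The weakest members were at sqv-3, a galactosyltransferase gene (39.80), and kin-35 (39.81), and the strongest candidate of the same kind below the IDR threshold had a signal of 39.79.

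The genes with one-sided peaks differed from other autosomal protein-coding genes in their surroundings. The upstream neighbour was in tandem, that is on the same strand, and ended within 1000 bp for 243 of 489 genes (49.7%, 45.2 to 54.2%), against 42.9% (41.4 to 44.4%) of genes with one-sided candidates that were not IDR peaks, whose summits met the same rule, and 29.3% of all autosomal genes for which a neighbour could be assigned. The rule, which leaves out summits near starts on the other strand, raises this share against all genes, and its window moves it: summits within 250 bp gave 40.1% of genes with peaks, and summits within 1000 bp gave 54.6%. None of the 468 genes with divergent peaks had such a neighbour, as their definition requires a gene of the other strand close by. A neighbour ending within 200 bp, the spacing typical of operons, was found for 13.9% (11.0 to 17.3%) of genes with one-sided peaks, 21.7% of genes with the other one-sided candidates and 10.1% of all genes. A head-to-head neighbour with its 5′ end within 1000 bp was found for 13.3% of genes with one-sided peaks, 9.20% of genes with the other one-sided candidates and 19% of all genes, and the rule lowers this share.

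The genes were also compact at their 5′ end. The first intron had a median of 53 bp and an upper quartile of 115.8 bp among genes with one-sided peaks, a median of 52 bp among genes with divergent peaks, a median of 105.5 bp among genes with the other one-sided candidates, and a median of 81 bp with an upper quartile of 383.2 bp among all autosomal genes. The median distance to the upstream neighbour was 649 bp for genes with one-sided peaks, 368 bp for genes with divergent peaks, 797 bp for genes with the other one-sided candidates and 943 bp for all genes. Median gene length was 2235 bp for genes with one-sided peaks and 1964 bp for all genes. It was 2378 bp for genes with divergent peaks and 2388.5 bp for genes with the other one-sided candidates. The median was 6 exons for genes with either kind of peak, and 5 for genes with the other one-sided candidates and for all genes. A gene name, other than the systematic one, had been given to 68.5% of genes with one-sided peaks and 55.4% of all genes. The share was 71.6% for genes with divergent peaks and 57.8% for genes with the other one-sided candidates.

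Signs of trans-splicing at the annotated start were more frequent as well. The sequence TTTCAG, the worm's 3′ splice site consensus, ended within 20 bp upstream of the annotated 5′ end for 140 of 489 genes with one-sided peaks (28.6%, 24.7 to 32.9%), for 27.8% of genes with divergent peaks, for 20.4% of genes with the other one-sided candidates and for 15.2% (14.7 to 15.8%) of all autosomal genes. Measured from the coding start, the shares were 34.6% for genes with one-sided peaks, 35.7% for genes with divergent peaks, 23.9% for genes with the other one-sided candidates and 19.8% for all genes. The search was of letters only, and did not separate trans-splicing from splicing of an intron that ends before the coding start. At a gene annotated from its acceptor site, the summit distance given above is a distance to that site and not to the start of transcription.

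The summits sat on a narrow island of GC-rich sequence between AT-rich flanks. In windows of 51 bp the mean G+C content was 43.9% at the summit, 30.2% at 100 bp upstream and 30.9% at 100 bp downstream. One-sided candidates that were not IDR peaks had 34.7% at the summit, 33.9% upstream and 34.6% downstream, without such an island. Over the whole window, 100 bp to each side, the island averaged out: the median was 36.8% at one-sided summits, 37.3% at divergent summits, 33.8% at the other candidates and 33.3% at all autosomal promoters, in windows set at the same median offset.

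CpG dinucleotides followed the same pattern. One-sided peaks had 6.84 CpG per 100 bp at the summit, against 3.11 and 3.47 at 100 bp upstream and downstream, while the other one-sided candidates had 3.54 at theirs. Relative to the number that the base content gives, the median ratio over the whole window was 1.53 at one-sided summits, 1.56 at divergent summits, 1.15 at the other candidates and 1.03 at all promoters. In windows of 51 bp this ratio was 1.395 at the one-sided summit, 1.34 at 100 bp upstream, 1.42 at 100 bp downstream and 1.52 at 50 bp downstream, so the ratio, unlike the count, had no narrow maximum at the summit. C. elegans DNA lacks CpG methylation as it is known in vertebrates, so these are counts of sequence and not of a modified base.

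**Figure D4:**
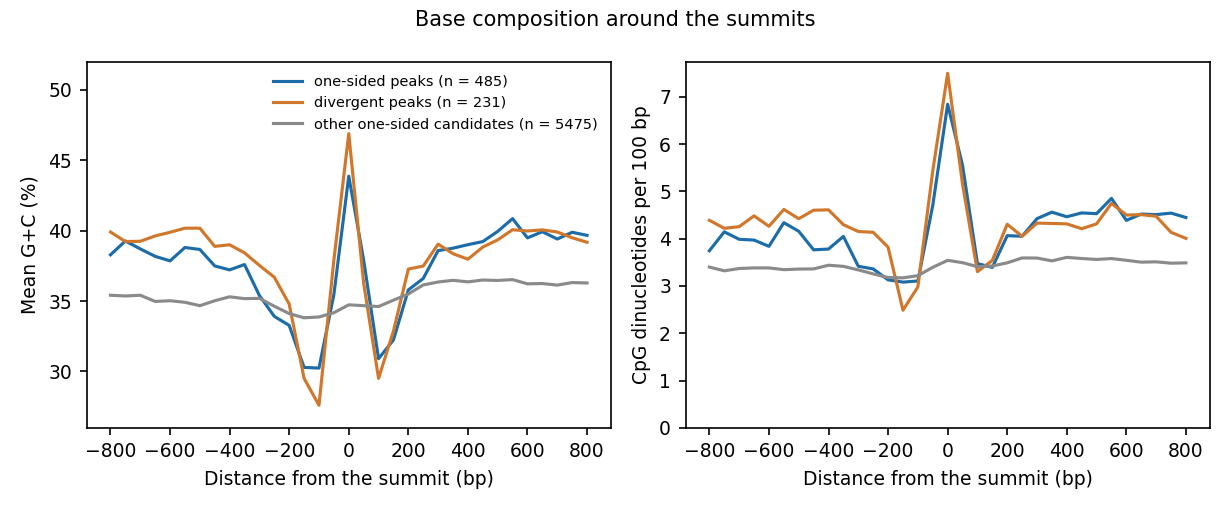
Mean G+C content (left, %) and CpG dinucleotides per 100 bp (right) in 51 bp windows by distance from the summit (x axis, bp, negative upstream of the gene) for one-sided peaks, divergent peaks and other one-sided candidates. Both kinds of peak show a narrow maximum at the summit with minima near 100 bp to either side, and the other candidates have no such maximum.

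Of the 12 motifs searched on both strands within 100 bp of the summit, those most over their flanks were forms of the E2F site. The letters TTTCGCGC were found at 37 of 485 one-sided summits (7.63%, 5.43 to 10.4%), in a mean of 1.03% of windows 500 bp to either side and at 0.969% of all promoters. For TTTCCCGC the shares were 4.95% at one-sided summits, 0.722% in flanks and 1.24% at all promoters. Either form was present at 60 one-sided summits (12.4%, 9.57 to 15.6%), at 9.52% (6.07 to 14.1%) of divergent summits, at 2.70% of the other one-sided candidates and at 2.17% of all promoters. Of the 37 summits with TTTCGCGC, 28 had it within 50 bp. A match is a description of the letters and does not show that a factor binds there.

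The remaining motifs differed less from their flanks. GGGCGG, the core of the GC box, was at 8.45% of one-sided summits, 3.82% of flanks and 4.80% of all promoters, and GAGAGA at 19.8% of one-sided summits, 13.1% of flanks and 14.4% of all promoters. TATAAA, the TATA box core, was at 21.4% of one-sided summits against 16.4% of flanks, but at 25.2% of all promoters, and a run of 8 T was at 22.1% against 15.1% of flanks and 25.1% of promoters. The GATA-type word TGATAA was at 14% of one-sided summits and 16.3% of flanks, the E box CACGTG at 4.12 and 5.05% (3.61% in flanks 1000 bp away, which turns the direction), and the CREB half-site TGACGT at 5.98 and 7.74%. CTGTTTCA, a motif known from piRNA promoters, was at 6 one-sided summits (1.24%, 0.455 to 2.67%), at 1.24% of flanks and at 1.58% of promoters. Of the B box forms of tRNA genes, GTTCGANNC was at 0.825% of one-sided summits, 2.27% of flanks and 1% of promoters, the lowest ratio of summits to flanks among the 12 motifs, and GTTCAANNC at 1.65, 1.96 and 2.47%. The rule leaves out summits near tRNA genes.

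A pair of windows of 61 bp are shown for each of the 3 motifs most over their flanks, from the one-sided peaks of highest signal that hold them and qualified for printing, on the strand of the gene with the motif in capitals. The motif can appear as its reverse complement.
pygl-1, V:3578984-3579044, plus strand, TTTCGCGC: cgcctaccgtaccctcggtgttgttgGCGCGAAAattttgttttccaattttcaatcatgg
T13F2.6, IV:9778240-9778300, plus strand, TTTCGCGC: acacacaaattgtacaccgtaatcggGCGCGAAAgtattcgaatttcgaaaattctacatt
cpg-1, III:4489144-4489204, plus strand, TTTCCCGC: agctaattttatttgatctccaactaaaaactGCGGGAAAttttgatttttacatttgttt
rga-3, V:5717465-5717525, plus strand, TTTCCCGC: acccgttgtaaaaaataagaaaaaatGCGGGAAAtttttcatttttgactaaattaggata
tasp-1, III:10759165-10759225, plus strand, GGGCGG: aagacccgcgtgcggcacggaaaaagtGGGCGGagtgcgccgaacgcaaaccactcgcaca
Y22D7AL.10, III:1619173-1619233, minus strand, GGGCGG: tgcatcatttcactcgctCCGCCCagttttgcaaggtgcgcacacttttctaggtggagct
The signal of these peaks was 121.7 at pygl-1, 115.3 at T13F2.6, 179.3 at cpg-1, 128 at rga-3, 157.3 at tasp-1 and 111.5 at Y22D7AL.10.

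Peaks with an E2F site form had a median signal of 64.4 (n = 60), and those without had 53.2 (n = 425). They were top in both replicates in 61.7% and 48.9% of cases. The difference in signal was not tested. By gene list, described next, and set beside the 12.4% of all one-sided peaks, an E2F site form was at 6 of the 8 one-sided peaks of eggshell genes (cpg-1, egg-1, cpg-2, perm-1, chs-1 and egg-4) and at 4 of 10 of DNA replication genes (rfc-1, pcn-1, mcm-7 and mcm-4). It was at 4 of 7 of chromatin regulators (set-2, lin-9, efl-1 and hmg-3), where efl-1 itself encodes an E2F factor and lin-9 a subunit of the DRM complex that contains it. It was at none of 6 of ribosome biogenesis genes, none of 6 of the respiratory chain, none of 5 of cell cycle and mitosis, none of 5 of the proteasome and 1 of 5 of P granule genes (tofu-6). The remaining lists with at least 5 such peaks had lower shares than the eggshell, replication and chromatin lists. They had 3 of 11 for oocyte and embryo RNA-binding proteins, 2 of 6 for the mitochondrial ribosome and 2 of 8 for nuclear pore and transport. Meiosis had 2 of 9, splicing 1 of 9 and the ubiquitin and SUMO list 1 of 8.

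The 489 genes were compared with 28 lists of gene groups, set beside the 2.84% of all autosomal protein-coding genes. In total 124 of them were in at least 1 list. The lists were chosen with earlier results of these data known, so their order can partly reflect that choice. Lists of the oocyte, of replication, of ribosome biogenesis and of meiosis stood highest: 8 of 17 eggshell genes had a one-sided peak (47.1%, 23.0 to 72.2%), 11 of 40 genes of the list of oocyte and embryo RNA-binding proteins (27.5%, 14.6 to 43.9%), 10 of 41 DNA replication genes (24.4%, 12.4 to 40.3%), 6 of 26 ribosome biogenesis genes (23.1%, 8.97 to 43.6%) and 9 of 43 genes of meiosis and synapsis (20.9%, 10 to 36%). A few genes do not belong to their lists by function, and were taken out after the values of the lists had been seen. Without chaf-1, a chromatin assembly factor gene, the eggshell count was 7 of 16, without glp-1, mei-1, mei-2 and rme-2 the RNA-binding count was 10 of 36, and without the evl- genes the replication count was 9 of 38.

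**Figure D5:**
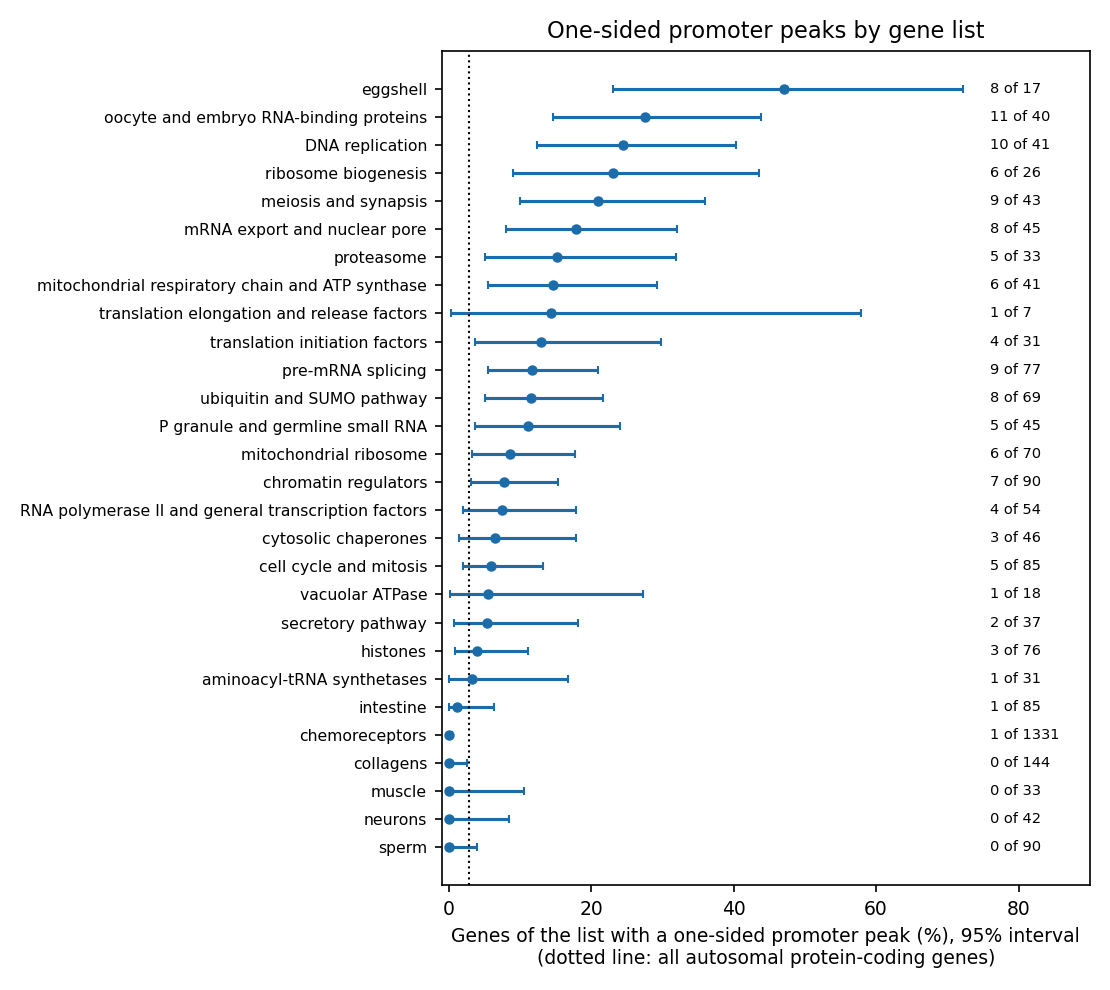
Percentage of the autosomal genes of each of 28 lists that have a one-sided promoter peak (x axis, with 95% intervals), sorted from highest to lowest, with counts at the right; the dotted line is the share of all autosomal protein-coding genes, 2.84%. Eggshell genes stand at 47.1%, and sperm, collagen, muscle and neuron lists at 0. The lists were chosen with earlier results of these data known.

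Eggshell genes serve to build the layers laid down around the fertilized egg. After cpg-1, their strongest one-sided peaks were at egg-1 (signal 124.3, ranks 123 in replicate 1 and 139 in replicate 2), at cpg-2, a second chondroitin proteoglycan gene (110.4, ranks 172 and 204), and at perm-1, a gene needed for the permeability barrier of the egg (89.4, ranks 178 and 526). All 4 were top in both replicates, and their summits lay between -255 and -189 bp. The chitin synthase gene chs-1 (72.76), egg-3 (50.55), egg-4 (49.31) and chaf-1 (41.48) followed. No eggshell gene had a divergent peak. The other lists that stood highest for one-sided peaks also had divergent peaks, which were at 2.71% of all autosomal genes. The divergent shares were 20.9% for meiosis, 15.4% for ribosome biogenesis, 12.5% for oocyte and embryo RNA-binding proteins and 12.2% for DNA replication.

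Among genes of oocyte and embryo RNA regulation, the strongest were mex-1 (125, ranks 134 in replicate 1 and 140 in replicate 2), puf-11, a gene of the Pumilio family (104.2, ranks 455 and 136), daz-1, the worm gene of the DAZ family (80.52, ranks 688 and 261), and cey-2, a Y-box protein gene (78.64, ranks 937 and 350). All 4 were top in both replicates. The others were rme-2, the yolk receptor gene (73.79), puf-3 (70.4), oma-2 (66.22), atx-2 (63.85), mex-6 (57.68), gld-1 (45.36) and puf-5 (44.14). The last 2 were outside the first 1676 candidates of replicate 1, at ranks 5612 and 2275.

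DNA replication genes with one-sided peaks covered several steps. Of the MCM helicase, mcm-2 had a signal of 113.7 (ranks 255 in replicate 1 and 130 in replicate 2), mcm-5 had 62.4, mcm-7 had 47.15 and mcm-4 had 40.71. The ribonucleotide reductase gene rnr-1 had 80.16 (ranks 198 and 772), the clamp loader gene rfc-1 had 63.72, the initiation gene sld-2 had 63.47, the sliding clamp gene pcn-1 had 59.45 and mcm-10 had 44.17. In the same list evl-14, a cohesin-associated gene, had 56.96. The peak of pcn-1 ranked 8962 in replicate 1 and 390 in replicate 2, and that of mcm-4 708 and 3555, so each was among the first 1676 in 1 replicate only.

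For meiosis, syp-5 of the synaptonemal complex led with 73.25 (ranks 781 in replicate 1 and 613 in replicate 2), followed by xnd-1, a chromatin factor of crossover distribution (63.07), cosa-1, a crossover gene (46.55), and com-1, for DNA end resection (46.47). Of these, cosa-1 had rank 6388 in replicate 1 and 975 in replicate 2. Ribosome biogenesis was led by pro-1 (66.72, ranks 143 and 1294), ruvb-2, an AAA ATPase gene (62.76, ranks 1031 and 720), nol-56 (49.54) and garr-1 (48.32), which encode snoRNP proteins.

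Lists for the machinery of gene expression ranged widely. Nuclear pore and transport genes had 8 of 45 (17.8%), led by npp-8 (91.01), the importin genes ima-2 (67.76) and imb-3 (55.06), and npp-19 (53.63). The splicing list had 9 of 77 (11.7%), led by rsp-6 (86.13), hrpk-1 (76.02), snrp-3 (64.56) and hrpa-1 (59.07), and translation initiation factors had 4 of 31 (12.9%), eif-3.C (108.5), ife-3, iff-1 (62.68) and eif-3.B (58.74). That list leaves out inf-1 (47.47) and iff-2, a paralogue of iff-1 (44.66), which also had one-sided peaks. Elongation and release factors had 1 of 7, erfa-3 (46.39), and aminoacyl-tRNA synthetases 1 of 31 (3.23%), kars-1 (45.04). The interval of the synthetases, 0.0816 to 16.7%, includes the share of all genes.

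The list of RNA polymerase II and general transcription factors had 4 of 54 (7.41%, 2.06 to 17.9%), an interval that includes the 2.84% of all genes. Its strongest one-sided peak was at snpc-3.4, a gene named for a SNAPc subunit, with a signal of 77.38, ranks of 160 in replicate 1 and 1268 in replicate 2, and a summit at -22 bp. The others were taf-4, for a TFIID subunit (52.07), rpb-5, for a shared polymerase subunit (44.18), and emb-5, for the elongation factor SPT6 (41.98).

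Protein turnover and mitochondria had shares in the same range. The proteasome list had 5 of 33 (15.2%), led by rpt-6 (63.64), pas-6 (51.36), pbs-3 (50.13) and rpn-13 (47.34), and the ubiquitin and SUMO list 8 of 69 (11.6%), with cul-4 (72.88), skr-18 (67.41) and ubc-9 (63.78) after cdc-48.1. The respiratory chain and ATP synthase had 6 of 41 (14.6%), with sdha-2 (60.37) and cyc-1 (58.23) after the cytochrome c oxidase genes, and the mitochondrial ribosome 6 of 70 (8.57%), led by mrpl-32 (58.81), mrpl-50 (58.47), mrpl-36 (50.22) and mrpl-55 (49.55). Cytosolic chaperones had 3 of 46 (6.52%), dnj-9, sti-1 (50.83) and dnj-16 (46.14), the secretory list 2 of 37 (5.41%), sec-61.A (91.74) and sec-61.G (85.65), and the vacuolar ATPase 1 of 18 (5.56%), vha-9 (76.32). The intervals of these last 3 lists include the share of all genes.

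Among germline and nuclear lists, P granule and germline small RNA genes had 5 of 45 (11.1%, 3.71 to 24.1%), led by znfx-1 (66.18), tofu-6 (51.14), pid-2 (48.23) and pgl-3 (44.71). Chromatin regulators had 7 of 90 (7.78%, 3.18 to 15.4%), led by swsn-3 (80.33), set-2 (64.97), mes-6 (61.4) and lin-9 (60.52). Cell cycle and mitosis had 5 of 85 (5.88%, 1.94 to 13.2%), led by cyk-7 (94.29), knl-3 (89.14), hcp-1 (87.33) and cls-2 (54.35). Histone genes, which occur in near-identical copies and are uncertain, had 3 of 76 (3.95%, 0.822 to 11.1%). This interval includes the share of all genes. The genes were his-62 (49.01), his-37 (46.77) and his-61. Within 100 bp of their summits, at least 80% of the stretches of 31 bp occurred once in the genome. The summits of his-62 and his-61 lay 418 and 495 bp downstream of the 5′ end.

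Lists of somatic tissues and of sperm held 2 one-sided peaks in all. No one-sided peak was found at 90 sperm genes (upper limit 4.02%), 144 collagen genes (2.53%), 33 muscle genes (10.6%) or 42 neuronal genes (8.41%). Intestine genes had 1 of 85, pho-5 (42.07), and chemoreceptor genes 1 of 1331 (0.0751%, 0.00190 to 0.418%), srw-95 (44.44). The upper limits of the sperm, muscle, neuron and intestine lists (6.38% for intestine) are above the 2.84% of all genes, so a lower share was not detectable there, while those of collagens and chemoreceptors are below it. Genes on X were not counted in any list.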

How the data were processed

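ChIP-seq peak lists of 2 samples, both of 1 group, were used on ce11. As the deposited notes state, candidate regions were called for each replicate and for the pooled replicates against the same control, and IDR peaks were taken from both replicate lists and the pooled list. Aligner, caller and IDR threshold: not given in the sources used here. In the deposited lists stand the authors' signal value, in a unit not given, and their deposited −log10 q-value. Signal was used only to rank and describe regions within a list, and no q-value enters a result. The p-value column holds a placeholder. Depth per sample is unknown.

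Summits were placed against the Ensembl release 115 annotation of WBcel235, and sequence came from RefSeq WBcel235. Both strands of the 100 bp to each side of a summit were searched for motifs and 6-mers, as were flanks centred 500 bp to each side; 6-mers were chosen on chromosomes I to III and reported on IV and V. Replicate values are those of the best overlapping candidate. With 1 group, no test between conditions was possible and none was run over regions; shares have exact binomial (Clopper-Pearson) intervals. The members, gene lists and comparisons were chosen with earlier results of these data known. Named genes are the 20 members of highest signal, the 4 highest per list, those with 2 genes, the largest rank gaps, the edges of the window and the weakest members; 1 of the 20 is not reported here. Further E2F-form peaks, list members and sequences were named after their values were seen. On simulated data the code gave 600 of 600 regions the right class. Python 3.11.15, numpy 2.4.6, pandas 2.3.3, scipy 1.17.1 and matplotlib 3.10.9 were used. Alternatives were other windows, a stricter list, each replicate alone, another annotation of starts and other motif windows.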

Additional observations from a re-analysis of the deposited data

How the results depend on the processing

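The number of one-sided peaks was 485. It was 202 in the stricter list, the 50% of IDR peaks of higher signal, and 241 when any overlap with a 5′ end was required in place of the summit window. The median offset of -175 bp was -137 bp with a 250 bp window, -189 bp with a 1000 bp window and -187.5 bp in the stricter list. The share of summits upstream was 83.3% with 1000 bp and 90.6% in the stricter list, against 86.8%. The share top in both replicates was 87.6% in the stricter list, against 50.5%. Median GC content, 36.8%, was 37.3% with 250 bp, 36.3% with 1000 bp, 37.8% in the stricter list and 36.6% when RNA genes were left out within 500 bp. The share of genes with a peak was 2.34% with 250 bp and 1.18% in the stricter list, against 2.84%. The median first intron of 53 bp was 52 bp with 250 bp, 55 bp with 1000 bp and 54 bp with transcript 5′ ends. The share with a tandem neighbour within 1000 bp was 40.1% with 250 bp and 54.6% with 1000 bp, against 49.7%. Without replicate 1 or replicate 2, the number was 452 to 486, the median offset -172.5 to -162.5 bp, the share upstream 80.5 to 85.4%, the CpG ratio 1.45 to 1.52 and the first intron 53 to 54 bp. Only the summit offset could change sign, and it stayed negative. Against flanks 1000 bp away, with 3.61% CACGTG, the difference between summits and flanks turned for 1 of the motifs, CACGTG. The causes were not tested. Motif and list values moved in 23 of 166 comparisons, of which 11 were windows of 50 bp to each side, which hold fewer bases. In the stricter list, which holds fewer peaks, eggshell genes with a peak were 5, not 8, meiosis genes 2, not 9, ribosome biogenesis genes 2, not 6, and DNA replication genes 6, not 10, while TTTCCCGC was at 8.91%, not 4.95%, and GGGCGG at 11.9%, not 8.45%. With a 1000 bp window DNA replication genes were 6, not 10. Sperm genes were 1, not 0, with a 250 bp window, with a 1000 bp window and without replicate 2. Without replicate 2, CGCGCA was at 17.9% of summits, not 22.3%.

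No paired analysis was possible because there was 1 group. Leaving out a replicate gives no value for the share top in both. Depth, unknown here, limits every absence. The 8-mers, the genes taken out of lists by function, and the alternatives for CpG ratios, acceptor sites, first introns, tandem neighbours, CGCGCA and list counts, were chosen after seeing the data.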

Other observations

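Longer words at the one-sided summits fell into a few families. Among 6-mers, the 5 with the largest difference from flanks on chromosomes I to III were 4 A-rich words and CGCGCA. The A-rich words were in 43 to 71.5% of the 172 one-sided windows on IV and V, against 32.3 to 52.6% of their flanks and 45.2 to 70.3% of all promoters. CGCGCA was in 18.6% (13.1 to 25.2%) of the windows on IV and V, which did not choose it, against 2.62% of their flanks. Over all members it was in 108 of 485 (22.3%), against 24.7% of divergent summits, 5.26% of the other one-sided candidates and 4.65% of all promoters, at a median of 24.5 bp from the summit.

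The 8-mers were searched after the sequences had been seen. Among those present in at most 2% of all autosomal promoters, the 5 chosen on the same chromosomes were CGAGACCC, GCGAGACC, AAGGCGCA, AAAGGCGC and GCAAACAC, where the first pair and the second pair overlap by sequence. On IV and V they were in 6.98, 8.14, 9.88, 10.5 and 8.14% of one-sided windows, against 1.45, 2.03, 1.74, 2.03 and 1.45% of flanks. At least 1 of the 5 was at 44 of the 172 one-sided summits on IV and V (25.6%, 19.2 to 32.8%) and in 6.10% (3.82 to 9.18%) of their flanks. Over all members it was at 140 of 485 (28.9%), against 84 of 231 divergent summits (36.4%), 6.96% of the other one-sided candidates and 5.01% of all promoters. Of these, the member and promoter shares are partly set by the choice of words. The words lay close to the summit, with 77.6 to 90.4% of the members that held one having it within 50 bp.

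The words are shown in 61 bp windows of one-sided peaks of high signal that hold them, on the strand of the gene, with the word in capitals.
F14H8.8, V:15029169-15029229, plus strand: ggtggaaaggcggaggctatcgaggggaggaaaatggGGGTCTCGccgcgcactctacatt
hat-1, III:10407418-10407478, minus strand: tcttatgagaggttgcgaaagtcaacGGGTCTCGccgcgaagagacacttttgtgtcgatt
W08E12.7, IV:3294767-3294827, plus strand: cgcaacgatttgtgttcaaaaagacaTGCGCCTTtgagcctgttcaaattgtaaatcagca
puf-11, IV:6421333-6421393, plus strand: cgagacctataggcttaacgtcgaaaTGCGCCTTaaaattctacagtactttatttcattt
pygl-1, V:3578945-3579005, plus strand: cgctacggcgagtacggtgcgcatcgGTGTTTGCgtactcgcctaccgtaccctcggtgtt
In F14H8.8 and hat-1 the word is part of a longer shared stretch, GGGTCTCGccgcg.

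Counts of these 8-mers by gene list include the members on chromosomes I to III, which chose the words. They are therefore partly set by that choice, as is the 28.9% of all one-sided peaks beside them. One of the 8-mers was at 5 of 10 one-sided peaks of DNA replication genes (rnr-1, mcm-5, evl-14, mcm-7 and mcm-10), of which only mcm-7 is on IV or V. It was at 5 of 9 of meiosis genes (syp-5, xnd-1, cosa-1, zhp-3 and dsb-2), all on I to III. In the oocyte RNA-binding list it was at 5 of 11 (puf-11, puf-3, oma-2, mex-6 and gld-1), of which puf-11, puf-3 and oma-2 are on IV or V. Among eggshell genes it was at 2 of 8 (cpg-1 and perm-1), both on I to III. It was also at 3 of 6 of the mitochondrial ribosome, 3 of 6 of ribosome biogenesis and 2 of 4 of RNA polymerase II and general transcription factors, and at none of 4 of translation initiation factors. In the remaining lists with at least 5 such peaks it was at 2 of 5 of P granule genes and 2 of 6 of the respiratory chain. It was at 2 of 8 of nuclear pore and transport genes, 2 of 9 of splicing, 1 of 5 of the proteasome and 1 of 5 of cell cycle and mitosis. Chromatin regulators had it at 1 of 7 and the ubiquitin and SUMO list at 1 of 8. Peaks with one of the 8-mers had a median signal of 55.2 and those without 53.2. Sequence copies did not mark these windows: all 31-mers of the window, 100 bp to each side of the summit, occurred once in the genome at 464 of 485 one-sided peaks (95.7%), 95.2% of divergent peaks and 91.4% of the other one-sided candidates. The lowest share among the one-sided peaks was 76.02%, at eel-1.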
